A study of Mus musculus with 36 samples.

Results

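Lysosomal hydrolases other than the cathepsins were followed in cardiac macrophages that overexpressed TFEB after ischemic injury of the heart. The set held 36 genes among 12795 genes of an RNA-seq count table. They were chosen by symbol from what their products do, with earlier results of these data known. All 36 symbols were found in the table, and all 36 genes passed the filter on low counts. Of these genes, 9 serve the breakdown of sphingolipids, 8 serve the breakdown of glycosaminoglycans, 9 encode glycosidases of glycoproteins and glycogen, 5 encode proteases or deacylating enzymes, and 5 encode phosphatases, a nuclease and phospholipases. Psap and Gm2a encode activator proteins that present lipids to the enzymes, and Hgsnat encodes a membrane acetyltransferase, so these genes are partners of hydrolases and not hydrolases in the strict sense.

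Mice were fed tamoxifen for 7 days, their hearts were made ischemic for 90 minutes, and macrophages were sorted from the hearts 7 days after the injury. The sort on CCR2, a chemokine receptor of monocytes and the cells derived from them, gave a CCR2pos and a CCR2neg fraction. In each fraction there were 4 groups. The mac-TFEB group (TFEB-TG, with Cre) carried a TFEB expression cassette behind a floxed stop sequence, and the CX3CR1-Cre group (TFEB-wt, with Cre) carried no cassette. The TFEB-TG Cre-neg group had the cassette and the TFEB-wt Cre-neg group did not, and both are labelled as lacking Cre. Each TFEB-TG group had 4 libraries and each TFEB-wt group had 5, which makes 36 libraries in 8 groups. The labels' protocols ascribe a tamoxifen-dependent Cre under Cx3cr1, a gene of monocytes and macrophages, and a Td-Tomato reporter to transgenic and control mice alike, so how Cre-neg cells were told from the others cannot be read from them. Nor do the labels say whether libraries of a group came from separate mice, and the p-values below measure the spread between these libraries, which may be technical in part.

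The enzymes of the lysosome are made in the endoplasmic reticulum, tagged in the Golgi with mannose 6-phosphate and delivered to an acid compartment, where they take apart sugars, lipids, proteins and nucleic acids. Macrophages depend on them to digest the dead cells and matrix they take up, and loss of single enzymes in humans causes lysosomal storage diseases. TFEB is a transcription factor that binds E-box-like DNA elements near lysosomal and autophagy genes and is best known from cell lines for raising the transcripts of many of these enzymes together.

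Library totals ran from 13797484 to 32645783 counts, with a median of 19676039. Tfeb averaged 158 ± 111 CPM (the usual depth-scaled count, here on TMM-scaled library totals, as mean ± SD, n = 4) in CCR2pos mac-TFEB libraries and 6.54 ± 2.94 CPM (n = 5) in CCR2pos CX3CR1-Cre libraries, and 188 ± 127 CPM in CCR2neg mac-TFEB libraries against 7.91 ± 0.920 CPM in CCR2neg CX3CR1-Cre libraries. Without Cre, Tfeb averaged 38.8 ± 15.2 CPM in TFEB-TG and 6.06 ± 0.770 CPM in TFEB-wt libraries of the CCR2pos fraction (adjusted p = 0.00249), and 21.1 ± 10.6 CPM in TFEB-TG and 6.65 ± 2.48 CPM in TFEB-wt libraries of the CCR2neg fraction (adjusted p = 0.0697, edgeR's quasi-likelihood test with Benjamini-Hochberg adjustment). Ccr2 followed the sort, with log2 fold changes of 3.46 to 3.95 between CCR2pos and CCR2neg cells in the 4 pairs of groups. The 8 of 8 measured macrophage markers summed to 26506 to 41786 CPM in every library. CCR2neg TFEB-TG Cre-neg library 1 stood apart, with 517 CPM over 10 cardiomyocyte markers (20.8 to 98.3 in the others) and 5692 CPM over 8 monocyte markers. Members called in fits that pair libraries are given with and without it. Other results that use it, those of further pathway genes among them, include it unless stated. A label joins a genotype with a number and is shared by 4 libraries, and Xist, the RNA of the inactive X chromosome, exceeded 10 CPM in all 4 or in none of them for each of the 9 labels. It did so in 2 of 4 TFEB-TG labels and in 4 of 5 TFEB-wt labels, so each group held cells of more than 1 mouse.

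TFEB and its relatives bind the 6-base E-box core CACGTG, and promoters of the members were searched for it because it is the sequence through which the overexpressed factor is known to act. RefSeq promoter windows of GRCm38.p6, 250 bases before to 50 after the transcript start, were at hand for 31 of 36 members and held the core in 7 of 31, or 22.6%. The share was 11.8% of the 9766 genes of the count table with a window and 8.09% of all 27025 genes with one. The 7 stretches are shown 5′ to 3′ on the strand of the gene, with the core in capitals and 12 bases on either side, except that Arsa is cut at the transcript start.
Glb1, chr9:114401018-114401047, plus strand: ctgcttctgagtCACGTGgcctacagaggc
Naglu, chr11:101070009-101070038, plus strand: caaccttcaggtCACGTGgcccgaggtcgg
Gaa, chr11:119267811-119267840, plus strand: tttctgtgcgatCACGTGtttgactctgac
Sgsh, chr11:119355522-119355551, minus strand: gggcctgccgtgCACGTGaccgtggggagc
Lgmn, chr12:102439124-102439153, minus strand: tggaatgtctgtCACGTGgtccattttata
Arsa, chr15:89477425-89477452, minus strand: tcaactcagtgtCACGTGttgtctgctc
Gla, chrX:134601182-134601244, minus strand: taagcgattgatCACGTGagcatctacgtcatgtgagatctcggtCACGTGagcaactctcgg

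The Gla window held the core at 2 places, 227 and 194 bases before the start, and the other 6 windows held it once, between 16 and 140 bases before the start. The core reads the same on both strands. With 1 more base on either side as TCACGTGA it was found in 1 of 31 members, against 2.22% of the genes of the count table, and the 10-base element GTCACGTGAC was found in 0 of 31, against 0.809%. These longer motifs contain the core. A match describes letters in a window and not binding.

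**Figure D1:**
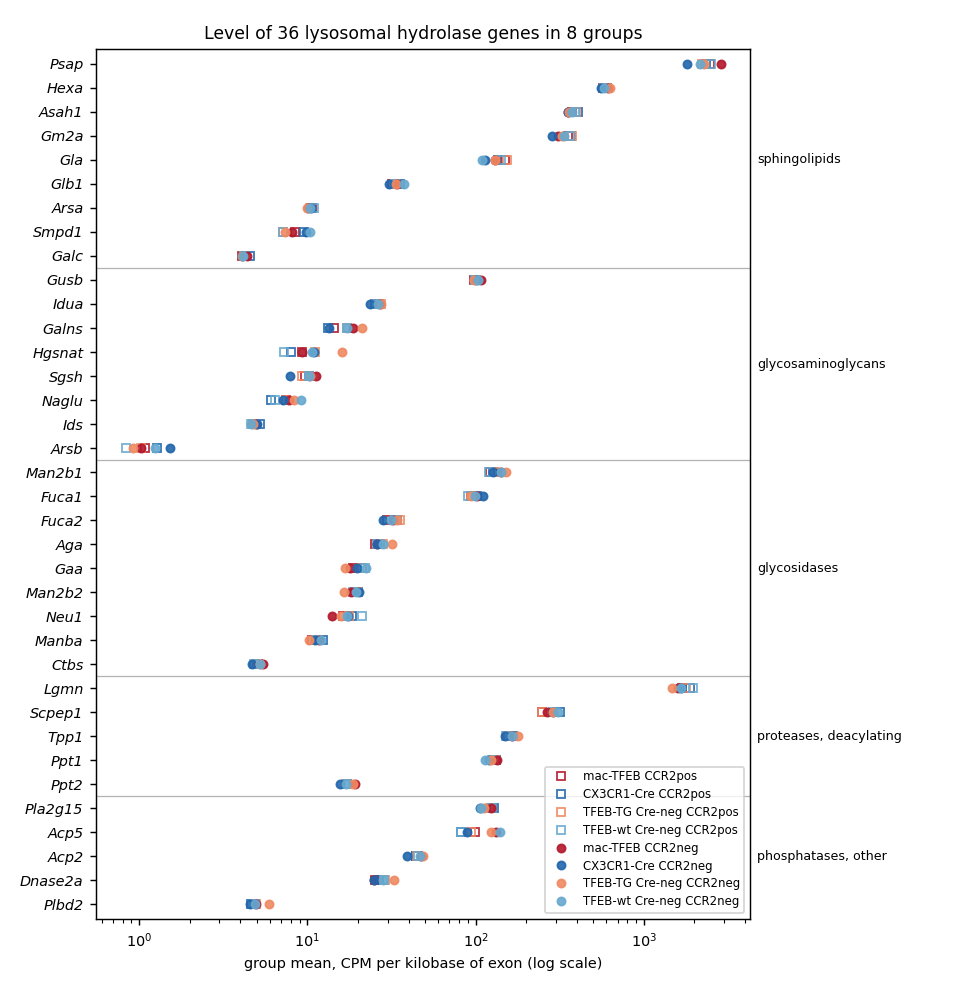
Mean level of each of the 36 genes in each of the 8 groups, in CPM per kilobase of exon on a log axis, with open squares for CCR2pos and filled circles for CCR2neg groups and genes ordered by role and level. The genes span from 1.12 (Arsb) to 2335 (Psap), while the 8 groups of a gene lie close together, within 1.5-fold in 30 of 36.

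Levels differed far more between the genes than between the groups. Per kilobase of exon, 35 of 36 members lay above the median of the 12783 genes with a length, and 15 lay in the top 10%. The 36 genes together took 1.84 to 2.18% of the TMM-scaled library totals as group means. The share was 2.18 ± 0.369% in CCR2neg mac-TFEB libraries and 1.84 ± 0.169% in CCR2neg CX3CR1-Cre libraries (SD, n = 4 and 5). Psap alone made up 31.0% of the summed CPM of the members and Lgmn 19.5%, and with Gm2a, Asah1, Hexa and Man2b1 they reached 74.5%. The ratio of the highest to the lowest group mean ran from 1.09 (Arsa) to 2.21 (Hgsnat), with a median of 1.25.

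Among the sphingolipid genes, Psap, which encodes the precursor of the saposins, led with 2335 CPM per kilobase as the mean of the 8 groups. Hexa, the alpha chain of beta-hexosaminidase, had 592, Asah1, the acid ceramidase, had 377 and Gm2a, the activator for GM2 ganglioside, had 340 CPM per kilobase. Gla, alpha-galactosidase A, had 133 and Glb1, the lysosomal beta-galactosidase, had 33.7. The lower end of the group was formed by Arsa (arylsulfatase A, 10.5), Smpd1 (acid sphingomyelinase, 8.50) and Galc (galactosylceramidase, 4.23).

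Levels of the glycosaminoglycan genes were lower. Gusb, beta-glucuronidase, had 101 CPM per kilobase and Idua, alpha-L-iduronidase, had 26.2. Galns, which removes sulfate from keratan and chondroitin sulfate, had 16.6, Hgsnat, the membrane enzyme that acetylates heparan sulfate, had 10.4, and Sgsh, the heparan N-sulfatase, had 9.90. Naglu (alpha-N-acetylglucosaminidase, 7.50), Ids (iduronate 2-sulfatase, 4.85) and Arsb (arylsulfatase B, 1.12) closed the list. Of the 6 members whose highest group mean exceeded the lowest by over 1.5-fold, 4 belong to this role, with ratios of 2.21 for Hgsnat, 1.83 for Arsb, 1.58 for Galns and 1.51 for Naglu. The others were Acp5 at 1.71 and Psap at 1.57.

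Of the glycosidases, the lysosomal alpha-mannosidase Man2b1 had 133 CPM per kilobase and the alpha-L-fucosidase Fuca1 had 98.0. Fuca2, its secreted relative, had 32.4, Aga, which cleaves the bond between sugar chain and asparagine, had 27.3, and Gaa, the acid alpha-glucosidase that degrades glycogen, had 20.0. The mannosidases Man2b2 and Manba had 19.1 and 11.4, the sialidase Neu1 had 17.3 and the chitobiase Ctbs had 5.09. Among proteases and deacylating enzymes, Lgmn, the asparaginyl endopeptidase legumain, had 1712 CPM per kilobase, the serine carboxypeptidase Scpep1 had 282, the tripeptidyl peptidase Tpp1 had 160, and the palmitoyl-protein thioesterases Ppt1 and Ppt2 had 126 and 17.4. In the last role the phospholipase A2 gene Pla2g15 had 119, the tartrate-resistant acid phosphatase Acp5 had 105, the acid phosphatase Acp2 had 45.3, the acid DNase gene Dnase2a had 27.5 and the phospholipase B-like gene Plbd2 had 4.98 CPM per kilobase.

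Reads were counted without strand, so reads of genes that overlap a member cannot be told apart from its own. The exon bases shared with another gene reached 39.9% for Arsb (with noncoding RNAs), 36.6% for Ppt2 (Gm20460), 30.0% for Dnase2a (Mast1) and 21.6% for Sgsh (Card14), and 0 to 18.8% for the other members. Values of these 4 genes may be affected by these overlaps, and by how much was not examined.

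**Figure D2:**
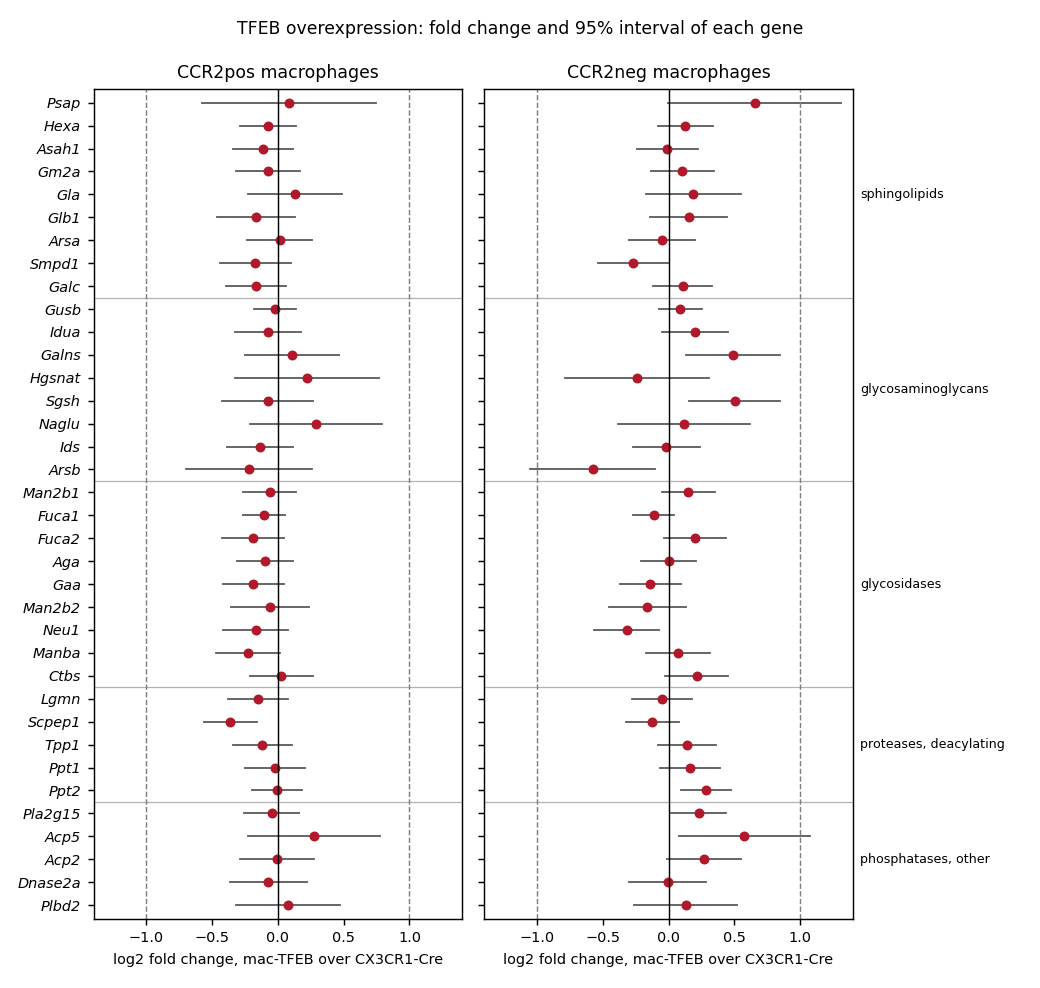
Log2 fold change of mac-TFEB over CX3CR1-Cre libraries with its 95% interval for each gene, CCR2pos macrophages left and CCR2neg macrophages right, with dashed lines at a 2-fold change. The intervals of 36 of 36 genes in the CCR2pos and 33 of 36 in the CCR2neg fraction lay within 2-fold.

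The first question of the study was which transcripts respond to TFEB overexpression. In CCR2pos macrophages, where Tfeb was 4.59 ± 0.46 higher on the log2 scale (estimate ± SE), 0 of 36 members passed the test, beside 0.0391% of all 12795 genes (edgeR's quasi-likelihood test with Benjamini-Hochberg adjustment, adjusted p under 0.05). At an unadjusted p under 0.05 there was 1 member, Scpep1, beside 4.62% of all genes, and limma-voom and DESeq2 also called 0 members. The estimates were positive for 9 members and negative for 27, with a median of -0.07, against a median of 0.00 over all genes. All 36 of the 95% intervals excluded a 2-fold change in either direction, and 31 excluded a 1.5-fold change.

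Scpep1 (ENSMUSG00000000278, chromosome 11, 88924020 to 88955465, minus strand, GRCm38) had 537, 489, 560 and 495 CPM in the CCR2pos mac-TFEB libraries, against 645, 624, 755, 634 and 681 CPM in the CCR2pos CX3CR1-Cre libraries. Every mac-TFEB library lay below every CX3CR1-Cre library, but the share of all genes separated in this way was not counted for this comparison. The difference was -0.36 ± 0.10 on the log2 scale, which did not pass the test over all genes (adjusted p = 0.566, edgeR's quasi-likelihood test with Benjamini-Hochberg adjustment). The same direction was seen without Cre, where the CCR2pos TFEB-TG Cre-neg libraries had 550, 555, 528 and 457 CPM and the CCR2pos TFEB-wt Cre-neg libraries had 556, 629, 589, 652 and 582 CPM (-0.20 ± 0.10, adjusted p = 1.00 in the same edgeR fit).

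The other members nearest to the test in CCR2pos cells were 3 glycosidases. Manba averaged 74.3 ± 5.28 CPM in CCR2pos mac-TFEB and 87.0 ± 19.2 CPM in CCR2pos CX3CR1-Cre libraries (SD, n = 4 and 5), with a log2 difference of -0.23 ± 0.12. Gaa averaged 89.0 ± 8.23 CPM in CCR2pos mac-TFEB and 101 ± 12.5 CPM in CCR2pos CX3CR1-Cre libraries (-0.19 ± 0.11). Fuca2 had 169, 170, 204 and 196 CPM in mac-TFEB, against 205, 218, 215, 211 and 204 CPM in CX3CR1-Cre libraries (-0.19 ± 0.12), so that the groups came within rounding of each other at 204 without crossing. Without CX3CR1-Cre library 3 Manba was at -0.10, and without CX3CR1-Cre library 2 Gaa was at -0.12. None of the 3 passed the test (adjusted p = 1.00 each, edgeR's quasi-likelihood test with Benjamini-Hochberg adjustment). Glycosidases had the lowest median of the roles apart from the proteases, -0.11 with 1 of 9 positive, and the proteases had -0.12 with 0 of 5 positive.

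In CCR2neg macrophages Tfeb was 4.57 ± 0.46 higher, and again 0 of 36 members passed the test in mac-TFEB against CX3CR1-Cre libraries, beside 1.38% of all genes (176 genes, 118 higher and 58 lower). DESeq2 called 0 members, limma-voom with quality weights called 6, beside 10.6% of all genes, and a fit with a term for Xist called 3, beside 3.35%. At an unadjusted p under 0.05 there were 8 members, 5 higher and 3 lower, beside 14.6% of all genes. Estimates were positive for 23 members and negative for 13, with a median of 0.11, against 0.01 over all genes. The 95% intervals excluded a 2-fold change in either direction for 33 of 36 members and a 1.5-fold change for 29, and the exceptions at 2-fold were Psap and Acp5 on the higher side and Arsb on the lower side.

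Ppt2, a lysosomal thioesterase (ENSMUSG00000015474, chromosome 17, 34616662 to 34628510, minus strand), had 50.8, 45.7, 48.8 and 55.2 CPM in CCR2neg mac-TFEB, against 39.0, 41.9, 39.3, 45.6 and 40.0 CPM in CCR2neg CX3CR1-Cre libraries. All mac-TFEB libraries were above all CX3CR1-Cre libraries, the closest pair by a narrow margin. The log2 difference was 0.29 ± 0.09 (adjusted p = 0.130, edgeR's quasi-likelihood test with Benjamini-Hochberg adjustment). As mean ± SD, Ppt2 had 50.2 ± 3.97 CPM in CCR2neg mac-TFEB and 41.2 ± 2.75 CPM in CX3CR1-Cre libraries. Cre-neg libraries of this fraction had 49.2 ± 4.87 CPM in TFEB-TG and 44.6 ± 4.79 CPM in TFEB-wt cells, so the CX3CR1-Cre mean was the lowest.

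Sgsh (ENSMUSG00000005043, chromosome 11, 119343425 to 119355536, minus strand) had 39.7, 58.6, 46.5 and 53.5 CPM in CCR2neg mac-TFEB, against 35.2, 42.2, 34.1, 37.2 and 26.3 CPM in CCR2neg CX3CR1-Cre libraries. The groups overlapped in 1 library of each. The log2 difference was 0.50 ± 0.17 (adjusted p = 0.140). Galns (ENSMUSG00000015027, chromosome 8, 122578242 to 122611463, minus strand) had 38.0, 41.5, 56.5 and 63.3 CPM in mac-TFEB, against 38.1, 40.9, 29.3, 35.0 and 34.3 CPM in CX3CR1-Cre libraries. Here the libraries of labels 1 and 2 lay within or next to the CX3CR1-Cre range and those of labels 3 and 4 lay above it, and the log2 difference was 0.49 ± 0.17 (adjusted p = 0.166, edgeR's quasi-likelihood test with Benjamini-Hochberg adjustment for both genes). Sgsh averaged 49.6 CPM in CCR2neg mac-TFEB, 35.0 in CX3CR1-Cre, 45.7 in TFEB-TG Cre-neg and 45.4 in TFEB-wt Cre-neg libraries. Galns averaged 49.8, 35.5, 55.7 and 45.5 CPM in the same order. For both genes the CX3CR1-Cre mean was thus the lowest of the fraction.

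Neu1, the sialidase (ENSMUSG00000007038, chromosome 17, 34931253 to 34935953, plus strand), ran the other way, with 61.8, 55.0, 49.2 and 44.1 CPM in CCR2neg mac-TFEB, against 62.8, 66.2, 73.2, 55.5 and 69.6 CPM in CCR2neg CX3CR1-Cre libraries. Of the mac-TFEB libraries 3 lay below the whole CX3CR1-Cre range. The log2 difference was -0.32 ± 0.12 (adjusted p = 0.197, edgeR's quasi-likelihood test with Benjamini-Hochberg adjustment). Neu1 averaged 52.5 CPM in CCR2neg mac-TFEB, 65.4 in CX3CR1-Cre, 59.1 in TFEB-TG Cre-neg and 64.7 in TFEB-wt Cre-neg libraries. Smpd1 is added for its values: it had 25.3, 28.4, 27.7 and 27.3 CPM in mac-TFEB, against 36.1, 31.5, 32.6, 30.9 and 32.5 CPM in CX3CR1-Cre libraries. Its groups did not overlap, and the difference was -0.27 ± 0.13 (adjusted p = 0.341 in the same edgeR fit). Smpd1 and Ppt2 were the only members whose libraries were fully separated in this comparison, 2 of 36 beside 6.01% of all genes, which is near the background. This share was counted for no other comparison between groups, so separated libraries elsewhere have no background beside them.

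By role, the median log2 differences in CCR2neg cells were 0.11 for sphingolipid genes (6 of 9 positive), 0.10 for glycosaminoglycan genes (5 of 8), 0.00 for glycosidases (5 of 9), 0.14 for proteases and deacylating enzymes (3 of 5) and 0.23 for phosphatases, nuclease and phospholipases (4 of 5). Within the sphingolipid genes the estimates reached from -0.27 for Smpd1 to 0.66 for Psap. Psap had 5404, 4460, 11798 and 9752 CPM in CCR2neg mac-TFEB, against 4775, 6608, 4813, 4343 and 4404 CPM in CCR2neg CX3CR1-Cre libraries. Labels 3 and 4 were above every CX3CR1-Cre library while labels 1 and 2 were among them, and the difference of 0.66 ± 0.32 had an adjusted p of 0.345 (edgeR's quasi-likelihood test with Benjamini-Hochberg adjustment).

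Tfeb itself stood at 335, 250, 98.1 and 67.4 CPM in these CCR2neg mac-TFEB libraries of labels 1 to 4. The libraries of labels 1 and 2 thus had more Tfeb and less Psap and Galns than those of labels 3 and 4. Labels 1 and 2 lacked Xist and labels 3 and 4 had it, so the level of Tfeb and Xist cannot be told apart among these 4 libraries. In CCR2neg TFEB-TG Cre-neg libraries of labels 1 to 4 Tfeb stood at 36.5, 18.6, 16.9 and 12.4 CPM. Psap had 3852, 2307, 8975 and 9968 CPM there, and Galns had 38.1, 52.7, 66.0 and 66.0 CPM. Labels 3 and 4 were thus above labels 1 and 2 in both genes also without Cre. The part of Tfeb in the split was not tested.

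The promoters with the E-box core did not stand out in this comparison. In CCR2pos cells the median log2 difference was -0.08 over the 7 members with the core and -0.07 over the 24 without it. In CCR2neg cells it was 0.11 with the core and 0.12 without it. Sgsh, whose core lies 29 bases before the start, had the highest estimate of the 7 in CCR2neg cells, and Gaa, with its core at 140 bases, had the lowest (-0.14). In TFEB-TG over TFEB-wt Cre-neg libraries the CCR2neg medians were -0.15 with the core (2 of 7 positive) and 0.02 without it (13 of 24). The CCR2pos medians there were -0.05 and 0.03, and no gap between these medians was tested.

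**Figure D3:**
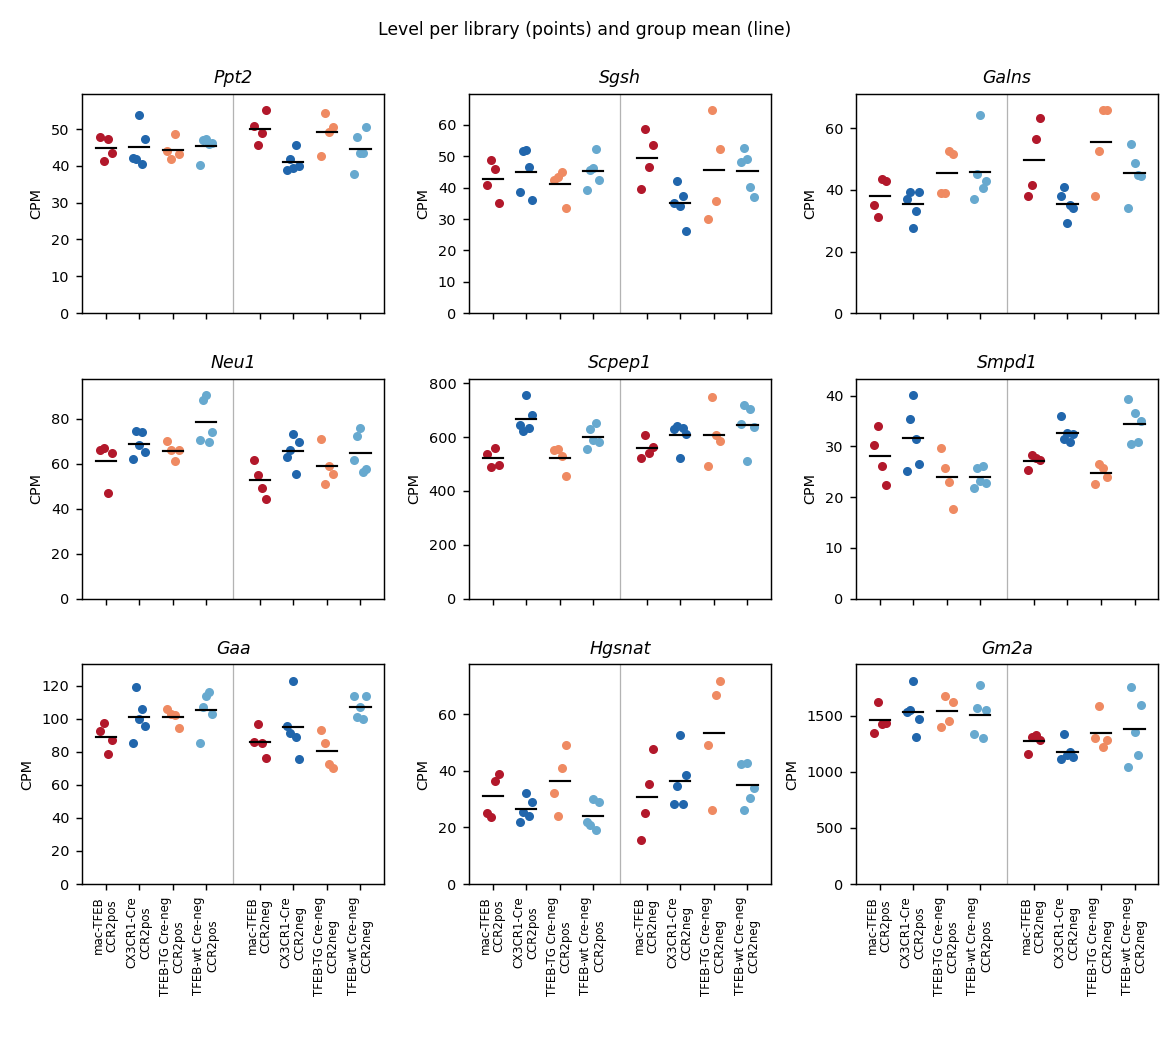
Level in CPM of 9 genes in every library (points) with the group mean (line), CCR2pos groups left and CCR2neg groups right of the grey line. Ppt2 and Smpd1 in the CCR2neg and Scpep1 in the CCR2pos fraction show mac-TFEB and CX3CR1-Cre libraries that do not overlap, and Hgsnat shows its highest values in CCR2neg TFEB-TG Cre-neg libraries.

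Whether the fractions differed in their response was tested as a difference of differences, CCR2pos minus CCR2neg. No gene of the table passed this test, and the 36 members included 3 with an unadjusted p under 0.05, beside 3.95% of all genes; limma-voom and DESeq2 also called 0 genes. The 3 were Sgsh (-0.58 ± 0.24), Fuca2 (-0.39 ± 0.16) and Ppt2 (-0.29 ± 0.13), each with an adjusted p of 1.00 (edgeR's quasi-likelihood test with Benjamini-Hochberg adjustment). Sgsh had 40.7, 48.8, 45.9 and 35.1 CPM in CCR2pos mac-TFEB, against 38.6, 51.7, 51.9, 46.7 and 36.1 CPM in CCR2pos CX3CR1-Cre libraries, and those ranges overlapped almost fully. The estimates were negative for 28 of 36 members, with a median of -0.18 against 0.00 over all genes.

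Cre-neg cells with and without the cassette were compared as well. Tfeb itself was higher with the cassette, by 2.68 ± 0.43 in CCR2pos and 1.65 ± 0.43 in CCR2neg cells on the log2 scale. The CCR2neg difference did not pass the test. The comparison is therefore not one of the cassette with Tfeb unchanged. In the CCR2pos fraction 0 of 36 members passed the test, beside 0.0313% of all genes, and 2 had an unadjusted p under 0.05, beside 3.07%. In the CCR2neg fraction 0 passed, beside 0.406% of all genes, and 4 had an unadjusted p under 0.05, 1 higher and 3 lower, beside 13.1%. In the CCR2neg fraction DESeq2 called 2 members, beside 2.93% of its tested genes, limma-voom called 1, beside 0.797%, and the fit with an Xist term called 2, beside 2.23%. In the CCR2pos fraction all 3 called 0. The median log2 differences of the members were 0.02 and 0.01.

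Smpd1 and Gaa, which are named here after their values were seen, were nearest to the threshold in CCR2neg cells. Smpd1 had 22.6, 26.6, 25.7 and 24.0 CPM in TFEB-TG Cre-neg, against 39.3, 30.4, 36.7, 30.9 and 35.1 CPM in TFEB-wt Cre-neg libraries (-0.48 ± 0.13, adjusted p = 0.0798). Gaa had 93.3, 85.5, 72.6 and 70.0 CPM in TFEB-TG Cre-neg, against 114, 101, 107, 99.7 and 114 CPM in TFEB-wt Cre-neg libraries (-0.41 ± 0.11, adjusted p = 0.0802, edgeR's quasi-likelihood test with Benjamini-Hochberg adjustment for both). For both genes every TFEB-TG library was below every TFEB-wt library, but the share of all such genes was not counted here. Without TFEB-TG Cre-neg library 1, the library with cardiomyocyte transcripts, Gaa passed the test and Smpd1 did not, and without TFEB-wt Cre-neg library 2 Smpd1 passed and Gaa did not. Hgsnat had the highest estimate in both fractions, 0.60 ± 0.27 in each, with adjusted p of 1.00 in CCR2pos and 0.313 in CCR2neg cells (edgeR's quasi-likelihood test).

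Setting the TFEB comparison against the cassette comparison, as a difference of differences, gave 0 genes of the table in either fraction, and DESeq2 and limma-voom called 0 members. Tfeb was higher in both comparisons, so this difference may also subtract part of a response to it. Of the members, 0 in CCR2pos and 3 in CCR2neg cells had an unadjusted p under 0.05, beside 1.13% and 3.88% of all genes. The 3 were Hgsnat (-0.84 ± 0.38), Acp5 (0.75 ± 0.35) and Sgsh (0.49 ± 0.24), each with an adjusted p of 0.999 (edgeR's quasi-likelihood test with Benjamini-Hochberg adjustment). With a block for the label of each library, which pairs the Cre and Cre-neg libraries of a genotype, Acp5 was at 0.69 (adjusted p = 0.109) and Hgsnat at -0.83 (adjusted p = 0.136) in edgeR's quasi-likelihood test, and 0 of 36 members passed beside 0.250% of all genes. Without CCR2neg TFEB-TG Cre-neg library 1 the blocked values were 0.74 for Acp5 (adjusted p = 0.110) and -0.72 for Hgsnat (adjusted p = 0.268, edgeR).

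Libraries with Cre were next set against Cre-neg libraries of the same genotype and fraction. In TFEB-TG cells, mac-TFEB against Cre-neg, 0 of 36 members passed in either fraction, beside 0.0156% of all genes in CCR2pos and 0.156% in CCR2neg cells. At an unadjusted p under 0.05 there were 0 members in CCR2pos and 3 in CCR2neg cells, all 3 lower, beside 2.08% and 7.66% of all genes. In TFEB-wt cells, CX3CR1-Cre against Cre-neg, 0 of 36 passed, beside 0.00782% of all genes in CCR2pos and 2.60% in CCR2neg cells, and 4 and 5 members had an unadjusted p under 0.05, beside 5.64% and 13.1%. DESeq2 and limma-voom called 0 members in each of these 4 comparisons, and the fit with an Xist term called 1, in CCR2neg TFEB-wt cells, beside 3.30%. In the TFEB-wt CCR2neg comparison 26 of 36 estimates were negative, with a median of -0.11 against 0.01 over all genes. The TFEB-wt CX3CR1-Cre libraries of this comparison are the ones that served as control in the TFEB comparison, where 23 of 36 members were positive with a median of 0.11, so the 2 results share libraries. Of the monocyte markers, 8 of 8 were measured, and they summed to 291 to 611 CPM in CCR2neg CX3CR1-Cre and 887 to 2911 CPM in CCR2neg TFEB-wt Cre-neg libraries; their part in the members' differences was not tested.

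With the label block, which removes differences shared by libraries of a label, 2 members passed in CCR2neg TFEB-TG cells, beside 2.35% of all genes. Hgsnat had 15.4, 25.0, 35.3 and 47.8 CPM in CCR2neg mac-TFEB, against 49.0, 26.2, 66.6 and 71.8 CPM in CCR2neg TFEB-TG Cre-neg libraries of labels 1 to 4. It was lower in mac-TFEB within 4 of 4 labels, by a small margin in label 2, at -0.79 ± 0.16 (adjusted p = 0.00485 with the block and 0.367 without it). Dnase2a, which degrades DNA of engulfed cells, had 90.7, 137, 153 and 154 CPM in CCR2neg mac-TFEB, against 126, 191, 197 and 188 CPM in CCR2neg TFEB-TG Cre-neg libraries. It too was lower in 4 of 4 labels, at -0.40 ± 0.07 (adjusted p = 0.00141 with the block, edgeR's quasi-likelihood test with Benjamini-Hochberg adjustment). Without Cre-neg library 1, both stayed past the threshold with the block, Hgsnat at -0.68 ± 0.17 (adjusted p = 0.0328) and Dnase2a at -0.42 ± 0.08 (adjusted p = 0.00351). The 8 monocyte markers summed to 448 to 924 CPM in CCR2neg mac-TFEB and 1260 to 5692 CPM in CCR2neg TFEB-TG Cre-neg libraries, without overlap, and their part in these differences was not tested. Dnase2a was lower with Cre within every label of the other Cre comparisons too, also in TFEB-wt cells. Its blocked differences were -0.20 ± 0.07 in CCR2pos TFEB-TG, -0.18 ± 0.06 in CCR2neg TFEB-wt and -0.11 ± 0.06 in CCR2pos TFEB-wt cells. Hgsnat was at -0.23 ± 0.16, 0.04 ± 0.14 and 0.15 ± 0.15 in the same order, and none of these values passed.

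In CCR2neg TFEB-wt cells 1 member passed with the block, beside 7.54% of all genes. Acp5, an acid phosphatase of macrophages and osteoclasts, had 136, 253, 179, 184 and 149 CPM in CX3CR1-Cre, against 128, 347, 319, 252 and 369 CPM in TFEB-wt Cre-neg libraries of labels 1 to 5. It was lower in CX3CR1-Cre within 4 of 5 labels, and label 1 was the exception. The blocked difference was -0.60 ± 0.12 (adjusted p = 8.6e-04, edgeR's quasi-likelihood test with Benjamini-Hochberg adjustment). In the CCR2pos fractions 0 of 36 members passed with the block, beside 0.203% of all genes for TFEB-TG and 1.05% for TFEB-wt.

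**Figure D4:**
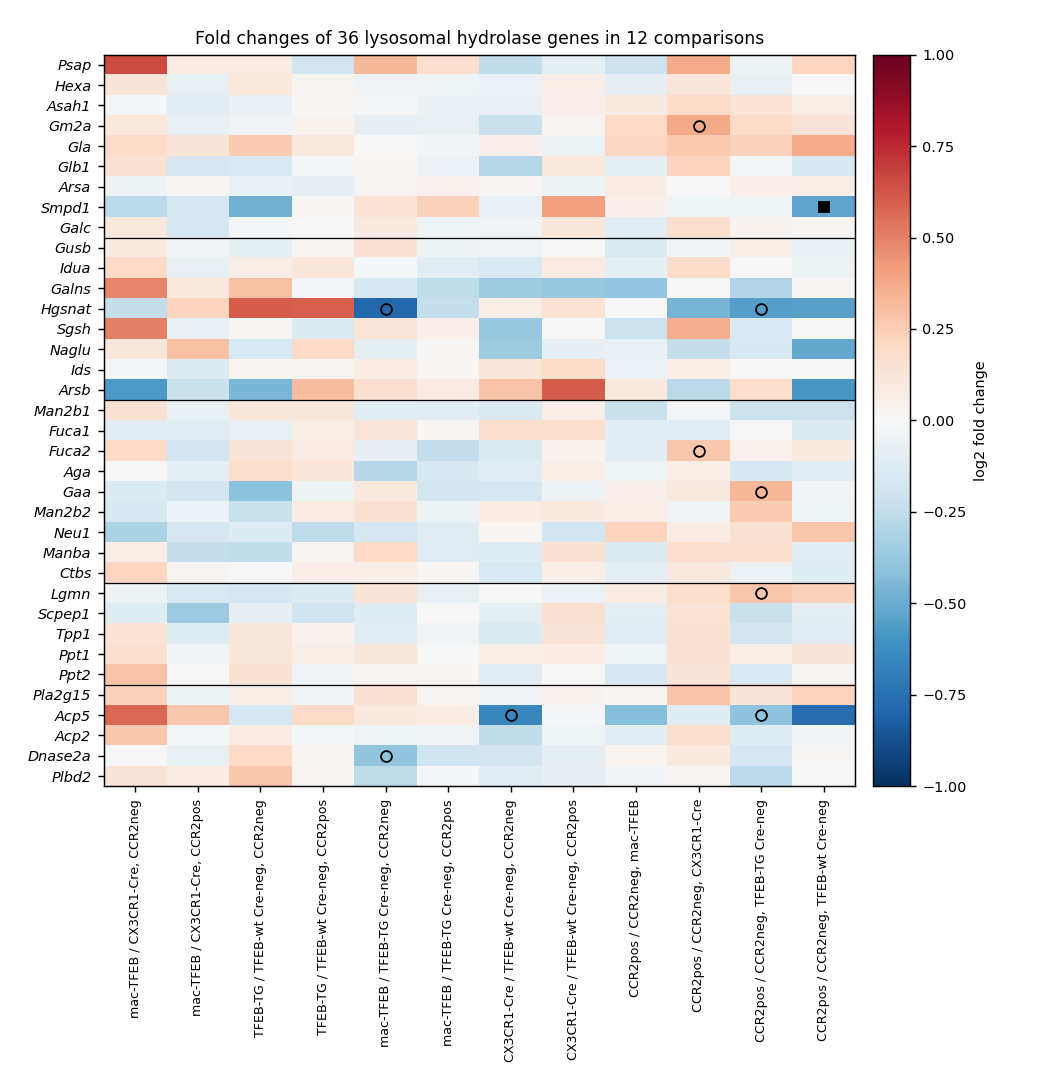
Log2 fold change of each gene in the 12 comparisons between groups, red for higher and blue for lower in the group named first, with a black square for the 1 value that passed edgeR's quasi-likelihood test and open circles for 9 values that passed only with the label block in the 7 Cre and CCR2 comparisons whose libraries the labels paired (all but the CCR2 comparison in TFEB-wt Cre-neg libraries). Most cells are pale, and the circles lie in Hgsnat, Acp5, Dnase2a, Gm2a, Fuca2, Gaa and Lgmn.

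CCR2pos cells were compared with CCR2neg cells in each of the 4 pairs of groups. In bulk libraries fewer cells of a type and less RNA per cell cannot be told apart, and this holds for every difference between the fractions. Of the 36 members, 0 passed in mac-TFEB (beside 0.539% of all genes), 0 in CX3CR1-Cre (0.797%), 0 in TFEB-TG Cre-neg (3.26%) and 1 in TFEB-wt Cre-neg libraries (2.35%). At an unadjusted p under 0.05 the counts were 2, 4, 4 and 10 members, beside 8.46, 11.0, 15.9 and 11.2% of all genes. DESeq2 called 1 member in CX3CR1-Cre, beside 1.71% of its tested genes, 2 in TFEB-wt Cre-neg libraries, beside 3.87%, and 0 in the other groups. Limma-voom called 1 in TFEB-TG Cre-neg, beside 3.75%, 1 in TFEB-wt Cre-neg libraries, beside 3.06%, and 0 in the others. The fit with an Xist term called 2 members in TFEB-wt Cre-neg libraries, beside 2.93%. Median log2 differences of the members were -0.07, 0.11, -0.01 and -0.02.

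The 1 member was Smpd1, the acid sphingomyelinase, which turns sphingomyelin into ceramide (ENSMUSG00000037049, chromosome 7, 105554360 to 105558389, plus strand), named after its values were seen. It had 21.8, 25.7, 23.1, 26.2 and 22.7 CPM in CCR2pos, against 39.3, 30.4, 36.7, 30.9 and 35.1 CPM in CCR2neg TFEB-wt Cre-neg libraries. No CCR2pos library reached the lowest CCR2neg library, and Smpd1 was lower in CCR2pos within 5 of 5 labels. The difference was -0.53 ± 0.12 (adjusted p = 0.0141, edgeR's quasi-likelihood test with Benjamini-Hochberg adjustment), and with each library left out in turn it stayed past the threshold, between -0.57 and -0.49.

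In the other groups Smpd1 showed no such gap. The log2 differences of CCR2pos over CCR2neg cells were 0.05 in mac-TFEB, -0.04 in CX3CR1-Cre and -0.04 in TFEB-TG Cre-neg libraries. The level was high in the CCR2neg TFEB-wt Cre-neg libraries and low in their CCR2pos counterparts, so that CX3CR1-Cre libraries of the CCR2pos fraction (25.2, 35.4, 40.1, 31.4 and 26.6 CPM) were above most of the CCR2pos TFEB-wt Cre-neg libraries (0.41 ± 0.12, adjusted p = 0.577 in the same edgeR fit). Whether the gap differs between groups was not tested. The 8 monocyte markers summed to 1103 to 2892 CPM in CCR2pos and 887 to 2911 CPM in CCR2neg TFEB-wt Cre-neg libraries, and the 8 markers of resident cardiac macrophages to 2659 to 4389 CPM in CCR2pos and 2923 to 5258 CPM in CCR2neg libraries; their part in the difference of Smpd1 was not tested.

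With the label block, differences between the fractions passed for 0 members in mac-TFEB (beside 3.76% of all genes), 2 in CX3CR1-Cre (4.31%) and 4 in TFEB-TG Cre-neg libraries (9.60%). In TFEB-wt Cre-neg libraries, which the labels' numbers did not pair by the limit used, 5 members passed with it, beside 6.31%. They were Smpd1, Acp5 (-0.73 ± 0.12, adjusted p = 9.7e-05, lower in CCR2pos within 5 of 5 labels), Hgsnat (-0.55 ± 0.15, adjusted p = 0.0163), Lgmn (0.23 ± 0.07, adjusted p = 0.0337) and Gla (0.39 ± 0.12, adjusted p = 0.0468, edgeR with the block). In CX3CR1-Cre libraries Gm2a had 1531, 1549, 1812, 1306 and 1471 CPM in CCR2pos, against 1115, 1334, 1148, 1174 and 1133 CPM in CCR2neg cells of labels 1 to 5. It was higher in CCR2pos within 5 of 5 labels, at 0.37 ± 0.08 (adjusted p = 0.00650 with the block and 0.114 without it, edgeR's quasi-likelihood test with Benjamini-Hochberg adjustment). The ganglioside activator was higher in CCR2pos within 4 of 4 labels also in mac-TFEB (0.20 ± 0.09) and in TFEB-TG Cre-neg libraries (0.20 ± 0.09), where the adjusted p with the block was 0.339 and 0.210 (edgeR).

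Fuca2 was the other member in CX3CR1-Cre libraries. It had 205, 218, 215, 211 and 204 CPM in CCR2pos, against 185, 183, 155, 169 and 180 CPM in CCR2neg cells. The fractions did not overlap, and the blocked difference was 0.27 ± 0.08 (adjusted p = 0.0371, edgeR's quasi-likelihood test with Benjamini-Hochberg adjustment). In mac-TFEB libraries the blocked estimate for Fuca2 was -0.11 ± 0.09. In CX3CR1-Cre libraries the 8 monocyte markers summed to 763 to 1344 CPM in CCR2pos and 291 to 611 CPM in CCR2neg cells, and the 8 of 8 measured dendritic cell markers to 129 to 205 CPM in CCR2pos and 49.2 to 86.4 CPM in CCR2neg cells. Both sums were fully separated, and their part in the differences of Gm2a and Fuca2 was not tested.

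In TFEB-TG Cre-neg libraries the 4 members were Gaa and Lgmn, higher in CCR2pos, and Acp5 and Hgsnat, lower in CCR2pos, each within 4 of 4 labels. Gaa had 106, 103, 102 and 94.2 CPM in CCR2pos, against 93.3, 85.5, 72.6 and 70.0 CPM in CCR2neg cells, without overlap (0.34 ± 0.11, adjusted p = 0.0378 with the block). Lgmn had 3941, 4691, 3756 and 4133 CPM in CCR2pos, against 2799, 3964, 3153 and 3750 CPM in CCR2neg cells (0.28 ± 0.07, adjusted p = 0.0131). Acp5 had 136, 137, 244 and 242 CPM in CCR2pos, against 226, 200, 328 and 250 CPM in CCR2neg cells (-0.44 ± 0.13, adjusted p = 0.0297, edgeR's quasi-likelihood test with Benjamini-Hochberg adjustment and the block throughout). Hgsnat was at -0.52 ± 0.16 (adjusted p = 0.0393 in the same fit). All 4 pairings use CCR2neg library 1. Without it, Gaa passed (0.40 ± 0.12, adjusted p = 0.0259) and the other 3 did not, with adjusted p of 0.0951 for Lgmn, 0.0949 for Acp5 and 0.182 for Hgsnat (edgeR with the block).

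**Figure D5:**
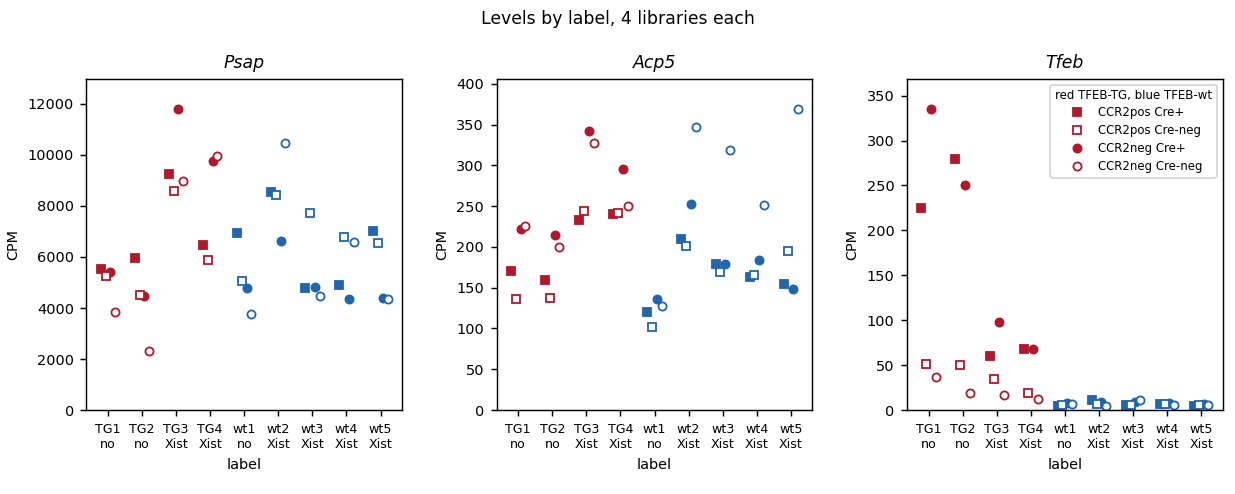
Level in CPM of Psap, Acp5 and Tfeb in the 4 libraries of each of the 9 labels (TG1 to TG4 in red, wt1 to wt5 in blue; squares CCR2pos, circles CCR2neg; filled with Cre, open Cre-neg), with Xist or no under labels whose libraries had or lacked it. The 4 libraries of label wt1 hold 102 to 136 CPM of Acp5, against 136 to 369 CPM in the other labels, and Tfeb is highest in the Cre-carrying libraries of labels TG1 and TG2.

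The label of a library went with much of the spread within groups. The share of the within-group sum of squares that lay between label means ran from 26.4% for Scpep1 to 89.8% for Dnase2a. Its median was 54.8% over the 36 members, and it was over 50% for 21 of them. Means of 4 unrelated libraries vary too, so part of this share arises without anything common to a label. The lowest shares may hold little else. Acp5 (82.1%), Hgsnat (75.2%), Lgmn (73.8%), Ctbs (73.2%) and Ppt1 (70.5%) followed Dnase2a. Smpd1, Naglu and Ppt2 were among the lowest, between 29.5 and 30.0%. The labels do not say that a number marks a mouse.

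Psap and Acp5 were the only members whose label means did not overlap between labels with and without Xist, 2 of 36 members beside 2.63% of all genes. Psap averaged 9663 and 8014 CPM in TFEB-TG labels 3 and 4 and 8514, 5444, 5649 and 5576 CPM in TFEB-wt labels 2 to 5, which had Xist. It averaged 5009 and 4316 CPM in TFEB-TG labels 1 and 2 and 5140 CPM in TFEB-wt label 1, which lacked it. Acp5 averaged 191 to 286 CPM in the 6 labels with Xist and 121 to 189 CPM in the 3 without it. With 3 labels lacking Xist, 2 of them in TFEB-TG, Xist and genotype are partly tied in the TFEB comparison.

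For context, the other genes of the same pathway were read from the same fits. Of 20 further lysosomal hydrolase genes, 0 passed in the CCR2pos TFEB comparison, and 2 rose and 1 fell in the CCR2neg TFEB comparison. Over all genes, 0.0391% passed in the CCR2pos and 1.38% in the CCR2neg comparison, which holds for both lists here. Lipa, the acid lipase, rose by 0.58 ± 0.11 (adjusted p = 0.00345), Pld3, a lysosomal exonuclease, rose by 0.71 ± 0.16 (adjusted p = 0.0169), and Plbd1, a phospholipase B-like gene and relative of the member Plbd2, fell by 1.38 ± 0.21 (adjusted p = 1.8e-04, edgeR's quasi-likelihood test with Benjamini-Hochberg adjustment). The estimate for Plbd2 was 0.13 in that comparison. Of 16 genes for sorting and activation of lysosomal enzymes, 2 rose in CCR2neg cells, the receptors Sort1 (1.31 ± 0.29, adjusted p = 0.0127) and Igf2r (1.24 ± 0.28, adjusted p = 0.0154), of which Igf2r is a mannose 6-phosphate receptor that carries many of the members, and 0 passed in CCR2pos cells (edgeR).

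The CCR2neg CX3CR1-Cre libraries of that comparison also serve in the comparison of Cre in TFEB-wt cells, so its values for the same genes are given beside them. In CCR2neg CX3CR1-Cre over TFEB-wt Cre-neg libraries Igf2r was at -1.26 ± 0.27 (adjusted p = 0.00724), Sort1 at -0.998 ± 0.279 (adjusted p = 0.0445), Lipa at -0.39 ± 0.11 (adjusted p = 0.0390), Pld3 at -0.41 ± 0.16 (adjusted p = 0.201) and Plbd1 at 0.88 ± 0.19 (adjusted p = 0.00827, edgeR's quasi-likelihood test). In all, 2 further hydrolases were higher and 4 lower there, and 0 sorting genes were higher and 2 lower, beside 2.60% of all genes called. With the cassette comparison subtracted from the TFEB comparison, 0 of these 5 genes passed (adjusted p = 0.999 each, edgeR).

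Between the fractions, 2 of the 20 further hydrolases passed in mac-TFEB (beside 0.539% of all genes) and 1 in CX3CR1-Cre libraries (0.797%), all higher in CCR2pos. In TFEB-TG Cre-neg libraries 2 were higher and 2 lower (3.26%), and in TFEB-wt Cre-neg libraries 3 were higher and 1 lower (2.35%). Plbd1 and Naaa, an acid amidase of the lysosome, passed in 3 of the 4 pairs of groups. Plbd1 was higher in CCR2pos cells by 1.45 ± 0.22 in mac-TFEB, 1.94 ± 0.22 in TFEB-TG Cre-neg and 1.51 ± 0.20 in TFEB-wt Cre-neg libraries, and Naaa by 0.72 ± 0.17, 0.95 ± 0.17 and 0.73 ± 0.15. Every one of these passed edgeR's quasi-likelihood test, with adjusted p up to 0.0311. Of the other further hydrolases, Pld4, a lysosomal exonuclease, was higher in CCR2pos cells by 0.32 ± 0.07 in CX3CR1-Cre (adjusted p = 0.0241) and by 0.28 ± 0.07 in TFEB-wt Cre-neg libraries (adjusted p = 0.0275). Lower in CCR2pos cells were Lipa (-0.45 ± 0.12, adjusted p = 0.0252) and the hyaluronidase-family gene Hyal2 (-0.54 ± 0.15, adjusted p = 0.0436) in TFEB-TG Cre-neg libraries, and Smpdl3a, a relative of Smpd1, in TFEB-wt Cre-neg libraries (-0.64 ± 0.14, adjusted p = 0.00832, edgeR). Of the sorting genes, Igf2r was lower in CCR2pos cells in TFEB-TG Cre-neg libraries (-1.18 ± 0.30, adjusted p = 0.0219, edgeR). The TFEB-TG Cre-neg values of these pathway genes are given only with CCR2neg library 1. Dendritic cell markers summed to 121 to 214 CPM in CCR2pos and 59.9 to 84.9 CPM in CCR2neg mac-TFEB libraries. In both pairs of Cre-neg groups these sums overlapped between the fractions. Their part in the differences of the pathway genes was not tested. Without the block, the largest difference of a member between the fractions was that of Acp5 in TFEB-wt Cre-neg libraries, at -0.76 ± 0.23 (adjusted p = 0.0830, edgeR).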

How the data were processed

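The authors deposited 1 table of whole-number read counts per gene for 36 libraries and 12795 genes, called filtered with no word on the filter. Per the labels' protocols, the SMARTer Ultra Low kit was used for cDNA and reads were single and without strand. HTSeq, Bowtie2, TopHat2 2.0.10 and GRCm38 appear in the submitters' processing notes, beside edgeR and DESeq. All else was computed here. CPM is the usual depth-scaled count, on TMM-scaled library totals, and log2 fold changes come from edgeR 4.0.16 (R 4.3.3) on the deposited counts, by the quasi-likelihood test over all 8 groups without a block. Every one of the 12795 genes passed the count minimum of 10, p-values were adjusted over all of them, and the call threshold was an adjusted p of 0.05. Each test is two-sided, and errors on log2 values are standard errors. Library totals ran from 13797484 to 32645783.

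Members and lists were chosen with earlier results of these data known. Full values were to be given for members called in a TFEB comparison or difference of differences, for the 4 further members of smallest unadjusted p in each TFEB comparison, and for members called in 2 or more CCR2 comparisons or in any Cre or cassette comparison. Smpd1, Psap, Gaa, Hgsnat, Dnase2a, Acp5, Gm2a, Fuca2 and Lgmn outside this rule were named after their values were seen. Pathway genes were named where called, up to 4 of smallest p in each comparison.

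Libraries with the same label number within a genotype deviated together from their group means (correlations of 0.14 to 0.634 in 7 comparisons of Cre or CCR2), which was taken as pairing. For Cre in CCR2neg TFEB-TG cells label 3 was at 0.303, below the 0.432 of its mac-TFEB library with another number. For Cre in CCR2neg TFEB-wt cells label 5 was at 0.14, against 0.13 with another number. Between genotypes the correlations ran from -0.416 to 0.141, which was not taken as pairing. This pairing was read from the data. Replicate pairs differed beyond sampling noise in 64 of 64 cases (chi-square over its degrees of freedom between 20 and 119). Alternatives were other size factors, other filters on low counts, an Xist term, the block, only the groups compared, limma-voom (limma 3.58.1), DESeq2 1.42.0 and each library left out. The block without CCR2neg TFEB-TG Cre-neg library 1 was added after seeing the data. The fit was tested on simulated counts. Exon lengths, positions and overlaps are from GENCODE vM21, and promoters are from RefSeq.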

Additional observations from a re-analysis of the deposited data

Results flagged for a closer look

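Among 120 groups of 4 or 5 libraries, taken over 15 genes described in the text, 11 had a library that stood off by Dixon's ratio. This ratio is the gap to the nearest other library over the range of the group, and it exceeded Dixon's 95% critical value. Chance alone gives such a library in about 1 in 20 groups, and groups of several genes share libraries.

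TFEB-TG Cre-neg library 1 was low in 4 of the 11. Dnase2a was at 126 CPM in the CCR2neg library, against 188 to 197 CPM in the others of its group, and Fuca2 was at 159 CPM there, against 226 to 231 CPM. In the CCR2pos library of the same label Fuca2 was at 189 CPM, against 226 to 230 CPM, and Gla was at 426 CPM, against 515 to 531 CPM. The CCR2neg library is the one with 517 CPM of cardiomyocyte markers, and the part of these markers in the low values was not tested.

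CCR2pos mac-TFEB library 3 was low in Neu1, at 46.9 CPM against 64.8 to 66.9 CPM, and in Lgmn, at 3384 CPM against 4045 to 4153 CPM. CCR2neg CX3CR1-Cre library 2 was high in Psap, at 6608 CPM against 4343 to 4813 CPM, and in Gm2a, at 1334 CPM against 1115 to 1174 CPM. Scpep1 was at 521 CPM in CCR2neg CX3CR1-Cre library 3, against 610 to 641 CPM. Ppt2 was at 40.3 CPM in CCR2pos TFEB-wt Cre-neg library 1, against 46.0 to 47.2 CPM, and Dnase2a was at 188 CPM in CCR2neg TFEB-wt Cre-neg library 2, against 139 to 151 CPM.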

How the results depend on the processing

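The 9 single-gene values rerun under every setting (Ppt2, Sgsh, Galns and Neu1 in the CCR2neg and Scpep1, Manba, Gaa and Fuca2 in the CCR2pos TFEB comparison, and Smpd1 between the fractions) kept their direction, and in the CCR2pos TFEB and cassette comparisons 0 of 36 members were called under each setting run. In CCR2neg cells the TFEB comparison gave 0 members in the main setting, 3 with an Xist term (Acp5, Galns and Ppt2, higher) and 6 with limma-voom (these 3 and Sgsh higher, Neu1 and Arsb lower). The cassette comparison in CCR2neg cells gave 2 with an Xist term, 2 with DESeq2 and 1 with limma-voom, and 0 to 1 with single libraries left out. Cre in CCR2neg TFEB-wt cells gave 1 with an Xist term (Acp5) and 0 to 1 with single libraries left out, 1 without Cre-neg library 1. Between the fractions DESeq2 gave 1 member in CX3CR1-Cre and 2 in TFEB-wt Cre-neg libraries, limma-voom gave 1 in TFEB-TG Cre-neg, and an Xist term gave 2 in TFEB-wt Cre-neg libraries, where leaving out single libraries gave 1 to 2, with 2 without CCR2neg library 1. The cause of these differences was not tested.

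The replicate block by label gave 2 members for Cre in CCR2neg TFEB-TG cells (2 also without the Cre-neg library that stood apart), 1 for Cre in CCR2neg TFEB-wt cells, 2 for the fractions in CX3CR1-Cre, and 4 in TFEB-TG Cre-neg libraries (1 without that library). Lgmn, Acp5 and Hgsnat were lost there. In TFEB-wt Cre-neg libraries the fractions were not paired by the limit used (lowest correlation 0.0958), and the block gave 5 members there. It changed no other count of members.

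Counts over all genes moved more. The CCR2neg TFEB comparison gave 176 genes, 59 to 260 with single libraries left out (59 without mac-TFEB library 3) and 67 to 1351 under the other settings, and the CCR2pos one gave 5 genes and 4 to 14. The cassette gave 52 genes in CCR2neg cells, 6 to 440 with single libraries left out (440 without TFEB-TG library 1) and 1 to 288 otherwise. In CCR2pos cells it gave 4, and 10 with the block by number. Cre gave 20 genes in CCR2neg TFEB-TG cells (6 to 301) and 333 in CCR2neg TFEB-wt cells (195 to 965). The fractions gave 69 genes in mac-TFEB (32 to 481), 102 in CX3CR1-Cre (46 to 552), 417 in TFEB-TG Cre-neg (68 to 1228) and 301 in TFEB-wt Cre-neg libraries (165 to 808). The 4 or 5 libraries per group limit what could be detected, with a median standard error of 0.120 for a member in the TFEB comparisons.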
